A study of Homo sapiens with 4 samples.

Results

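The circRNA repertoire of HepG2, an established human liver cancer cell line, was set against those of 3 other established lines, Hep3B, Huh-7D12 and SK-Hep-1. Circular RNAs (circRNAs) form when the spliceosome joins the end of an exon back to the start of the same or an upstream exon of its transcript. The closed loop has no free ends, so exonucleases that degrade linear messengers do not attack it, and it can outlast the messenger of its host gene. A circRNA is recognised by sequencing reads that cross this backward junction, the back-splice reads, and its level depends on transcription of the host, on the choice of back-splicing over linear splicing, and on turnover and dilution by cell division.

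Members were the circRNAs with a normalized back-splice read value of 6 or more in any line, with an empty value read as 0. This gave 777 of the 8000 circRNAs that had a value in any line, out of 12473 listed. The smallest highest value among members was 6.23, held by 32 circRNAs, and the largest among those left out was 5.58, held by 60. A value of 6 was reached with 5 reads in HepG2 or SK-Hep-1, with 6 reads in Huh-7D12 and with 7 in Hep3B. Of the 777 members, 224 reached 6 in HepG2, 323 in Hep3B, 325 in SK-Hep-1 and 414 in Huh-7D12. HepG2 alone brought in 53 of them, and 245 had no read in HepG2.

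The series was made within a study of circRNA knockdown by antisense oligonucleotides; the libraries here come from the 4 lines without any stated treatment. Each line was 1 library of total RNA, digested with DNase, depleted of ribosomal RNA and prepared as a stranded library without poly(A) selection, so that RNAs without a tail were kept. Nothing in the labels gives a passage, clone or second culture of a line. With 1 library per line, no test between lines was possible, and every interval given is a 95% interval for counting error only. The gene table held 18581156 to 24409250 reads per line, with 22950383 in HepG2, and back-splice reads ranged from 6235 in HepG2 to 13515 in Huh-7D12. HepG2 had reads for all 12 hepatocyte markers examined, among them 4058 for HNF4A and 89823 for ALB, while SK-Hep-1 had none for HNF4A, ALB and APOA1. Of the markers of other cell types, HepG2 had no read for KDR and TEK among 5 endothelial genes, for DES, COL1A2 and LUM among 7 stellate and fibroblast genes, for PTPRC and CD163 among 4 leukocyte genes, or for CFTR and KRT7 among 5 cholangiocyte genes. Others were read in HepG2, among them CDH5 and PECAM1 (endothelial) with 12 and 14 reads, PDGFRB and COL1A1 (stellate and fibroblast) with 165 and 46, and EPCAM, SOX9 and KRT19 (cholangiocyte) with 889, 2329 and 3417. Summed normalized values in HepG2 were 36.3 for the endothelial list, 351 for the stellate and fibroblast list and 9254 for the cholangiocyte list, against 0 to 39.0, 7472 to 155021 and 6767 to 10963 in the other lines. LYZ, from the leukocyte list, had 43238 reads in HepG2 and at most 1640 in the other lines, and LYZ and CDH5 were 4-fold or more above every other line.

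A circRNA is identified by its back-splice junction, the stretch that exists in no linear transcript of the annotated exon order and that a circle-specific oligonucleotide has to cover. The junctions below are those of circRNAs whose HepG2 value lay farthest above or below the other lines, of NFATC3 loops, and of CDYL as an abundant loop read at least 43 times in every line. Lower case gives the last 25 bases of the loop and capitals its first 25 bases, read 5′ to 3′ from GENCODE 29 transcripts on GRCh38. The first 6 are loops counted as 4-fold higher in HepG2, of which CYP24A1 and DIP2C had counting intervals apart from those of all other lines, followed by 3 NFATC3 loops, CDYL, and an ATXN10 loop without a read in HepG2.
CYP24A1 exons 3 to 11, chr20:54157169-54171670, minus strand: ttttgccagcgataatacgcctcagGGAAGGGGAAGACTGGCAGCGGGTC
DIP2C exons 7 to 9, chr10:408926-415888, minus strand: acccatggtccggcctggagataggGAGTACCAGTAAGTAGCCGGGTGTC
ITPR2 exons 27 to 37, chr12:26550247-26602706, minus strand: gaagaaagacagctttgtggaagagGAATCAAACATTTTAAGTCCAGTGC
PRCC exon 3, chr1:156786608-156787174, plus strand: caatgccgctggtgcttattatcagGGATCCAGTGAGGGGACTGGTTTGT
SERGEF exons 2 to 8, chr11:17988597-18008076, minus strand: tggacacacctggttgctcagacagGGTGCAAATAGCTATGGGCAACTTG
ARF4 exons 2 to 3, chr3:57583898-57584464, minus strand: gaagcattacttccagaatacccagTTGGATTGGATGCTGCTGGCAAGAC
NFATC3 exons 2 to 3, chr16:68121987-68126610, plus strand: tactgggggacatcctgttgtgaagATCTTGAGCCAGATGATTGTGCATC
NFATC3 exon 2, chr16:68121987-68123121, plus strand: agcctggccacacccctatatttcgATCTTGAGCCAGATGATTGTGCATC
NFATC3 exons 2 to 9, chr16:68121987-68191775, plus strand: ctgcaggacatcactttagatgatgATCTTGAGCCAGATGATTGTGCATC
CDYL exon 4, chr6:4891713-4892379, plus strand: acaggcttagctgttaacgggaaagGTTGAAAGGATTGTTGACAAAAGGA
ATXN10 exons 7 to 9, chr22:45729425-45740538, plus strand: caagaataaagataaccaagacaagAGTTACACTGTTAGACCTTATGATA
The 3 NFATC3 loops share their capitals, because each starts with exon 2, and differ in the exon that closes the circle. Exon numbers follow the matched transcript, and coordinates mark the first and last base of the loop.

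HepG2 had the smallest repertoire of the 4 lines. Its back-splice reads came to 516 per 1000000 gene reads outside the mitochondrial genome (504 to 529), against 747 (734 to 760) in Hep3B, 567 (555 to 580) in SK-Hep-1 and 881 (866 to 896) in Huh-7D12. HepG2 was the lowest and its interval met none of the others. In bulk RNA, fewer cells that carry a circRNA and less of it per cell cannot be told apart. HepG2 also gave the largest share of its gene reads to the mitochondrial genome, 47.4%, against 17.4% to 34.8% in the other lines. Against all gene reads, mitochondrial ones included, HepG2 had 272 back-splice reads per 1000000 and the other lines 370 to 727. The order of the lines was the same with either denominator.

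Back-splice reads were found for 2383 circRNAs of 1477 host genes in HepG2, against 3966 in Hep3B, 2742 in SK-Hep-1 and 4089 in Huh-7D12. At an equal depth of 6235 back-splice reads, 2530 circRNAs would be expected in SK-Hep-1, 2860 in Hep3B and 2965 in Huh-7D12. The number in HepG2 was thus lower also at equal depth. Of the 2383 circRNAs of HepG2, 46.5% rested on a single read, against 23.9% to 32.1% in the other lines. Among circRNAs seen in HepG2 alone, 215 had 1 read and 305 had 2, and in every line those with 2 reads outnumbered those with 1. Whether a read minimum over the 4 lines lies behind the table is not given in the sources used here, and a value of 0 can hide a single read.

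The HepG2 repertoire was also the most concentrated. Its 10 most abundant circRNAs held 11.3% of all back-splice reads (10.5% to 12.1%), against 6.17% (5.77% to 6.60%) in Hep3B, 6.38% (5.86% to 6.95%) in SK-Hep-1 and 5.54% (5.17% to 5.94%) in Huh-7D12. It took 363 circRNAs to reach 50% of the reads in HepG2 and 533 to 712 in the other lines. Without the loops of NFATC3, the share of the top 10 was 7.61% in HepG2 and 4.83% to 6.31% elsewhere.

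**Figure D1:**
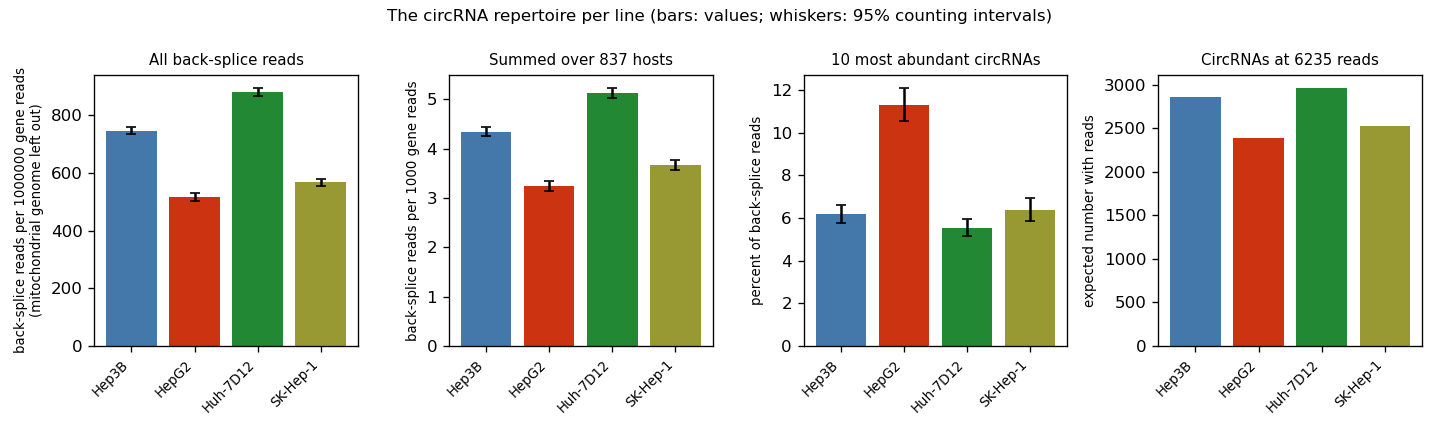
Back-splice reads per 1000000 gene reads outside the mitochondrial genome, back-splice reads per 1000 gene reads over 837 hosts, percent of back-splice reads in the 10 most abundant circRNAs, and expected number of circRNAs at 6235 back-splice reads, for each of the 4 lines; bars are values of 1 library, whiskers 95% counting intervals. HepG2 is lowest in the panels of back-splice reads and of circRNA numbers and highest, at 11.3%, in the panel of the 10 most abundant circRNAs.

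The most abundant circRNA of HepG2 was the loop of NFATC3 exons 2 to 3. NFATC3 encodes a transcription factor that moves to the nucleus after calcineurin removes its phosphates. The loop had 218 reads in HepG2, 152 in Hep3B, 40 in SK-Hep-1 and 153 in Huh-7D12, or normalized values of 304, 135, 53.8 and 166. HepG2 stood 1.83-fold (1.49 to 2.27) above Huh-7D12, the next line. Next in HepG2 came the loop of exon 2 alone, with 111, 58, 11 and 50 reads in the same order of lines, 2.86-fold (2.03 to 4.08) above Huh-7D12. For both loops HepG2 was the highest of the lines and SK-Hep-1 the lowest.

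Rank 3 in HepG2 was a loop of CYP24A1, the mitochondrial hydroxylase that inactivates the vitamin D hormone. It had 68 reads in HepG2, 5 in Hep3B and 0 in Huh-7D12 and SK-Hep-1, a normalized value of 94.8 (73.6 to 120.2) in HepG2 against 4.45 (1.45 to 10.4) in Hep3B. Rank 6 and rank 10, the latter level with ZKSCAN1 at 37 reads, were held by ARHGAP5, which encodes a GTPase-activating protein. Its exon 2 loop (chr14:32090502-32094386, plus strand) had 48 reads in HepG2, 37 in Hep3B, 7 in SK-Hep-1 and 14 in Huh-7D12. The loop of ARHGAP5 exons 2 to 5 (chr14:32090502-32117287, plus strand) had 37, 24, 1 and 18. HepG2 was the highest line for both, 2.03-fold (1.30 to 3.21) and 2.41-fold (1.41 to 4.22) above Hep3B.

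The remaining 5 of the top 10 were not set apart from the other lines in level. ASPH, an aspartyl hydroxylase of the endoplasmic reticulum, had 49, 34, 8 and 53 reads in HepG2, Hep3B, SK-Hep-1 and Huh-7D12, and the HepG2 value was 1.19-fold (0.790 to 1.79) that of Huh-7D12. FAT1 exon 2, from the gene of an atypical cadherin, had 38, 45, 14 and 13 reads, and HepG2 lay 1.32-fold (0.836 to 2.08) above Hep3B. HepG2 and the nearest line could not be told apart for either loop. Reads of the zinc finger gene ZNF124 came to 51, 49, 13 and 119, and those of ZKSCAN1, another zinc finger gene whose loop is abundant in liver, to 37, 65, 14 and 23. CDYL exon 4, from the gene of a chromodomain protein, had 47, 99, 43 and 46 reads, or normalized values of 65.5, 88.2, 57.9 and 49.8. In these 3 another line than HepG2 had the highest value.

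**Figure D2:**
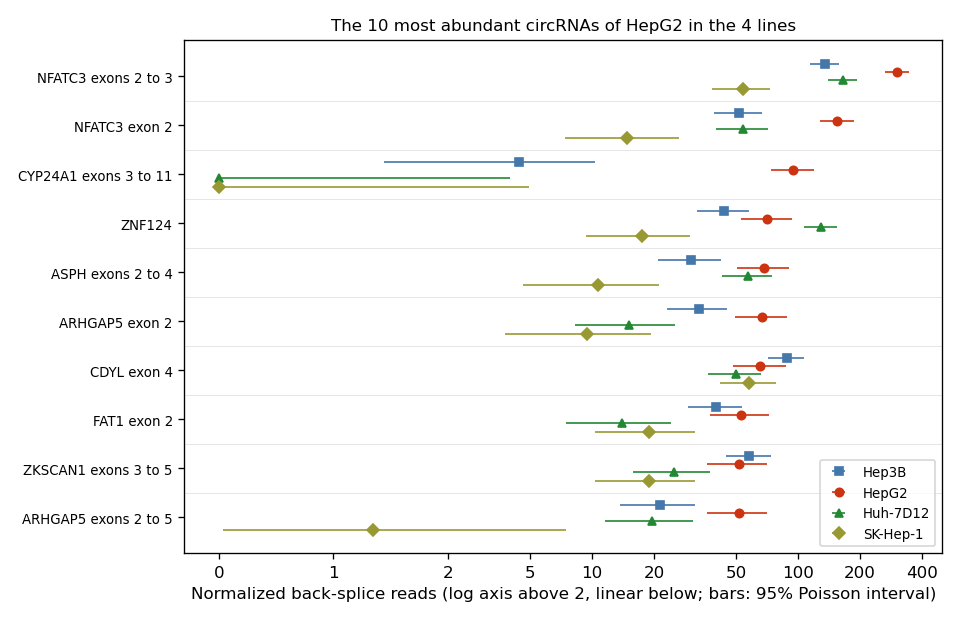
Normalized back-splice reads (log axis above 2, linear below) of the 10 most abundant circRNAs of HepG2 in the 4 lines; points are the value of 1 library and bars its 95% Poisson interval. HepG2 lies to the right of all other lines, without overlap, for both NFATC3 loops, CYP24A1 and both ARHGAP5 loops.

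NFATC3 as a host supplied 363 back-splice reads in HepG2, 5.82% (5.27% to 6.43%) of the line's total, against 1.76% (1.54% to 1.999%) in Hep3B, 0.724% (0.558% to 0.938%) in SK-Hep-1 and 1.61% (1.41% to 1.84%) in Huh-7D12. All 8 NFATC3 circRNAs of HepG2 began with exon 2. Gene reads of NFATC3 were also highest in HepG2, at 2017 against 1079 in Hep3B, 291 in SK-Hep-1 and 991 in Huh-7D12. Back-splice reads per 1000 gene reads were therefore close in the 4 lines: 180.0 (162 to 199) in HepG2, 210.4 (184 to 239.6) in Hep3B, 192 (145 to 249.9) in SK-Hep-1 and 220.0 (192 to 251) in Huh-7D12. The intervals of all 4 overlapped, which does not show that the ratios were equal. HepG2 had the lowest ratio, 1.07-fold (0.792 to 1.42) below SK-Hep-1, the nearest line. NFATC3 thus stood above the other lines in HepG2 by the level of its loops and its gene reads, not by a higher ratio. Back-splicing differs from linear splicing in using the same exon ends in another order, so the gene reads include reads from the exons of circular molecules, and the ratio is no ratio of molecules.

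The mix of loops within a host was much the same in HepG2 as elsewhere for NFATC3: the exon 2 to 3 loop made up 60.1% (54.9% to 65.0%) of NFATC3 back-splice reads in HepG2 and 67.0% to 71.4% in the other lines. Among the 4 hosts with 3 or more loops at a value of 6 or more in HepG2, the mix stood out most for MAN1A2, a mannosidase of the Golgi that trims glycans. The MAN1A2 loop of exons 2 to 4 had 12 of 37 host reads in HepG2, 2 of 29 in Hep3B, 8 of 72 in SK-Hep-1 and 10 of 80 in Huh-7D12. That is 32.4% (19.6% to 48.5%) in HepG2 against 6.90% to 12.5%; the interval of HepG2 overlapped those of Hep3B, Huh-7D12 and SK-Hep-1. RBM39, an RNA-binding splicing factor, had its exon 7 to 9 loop at 8 of 47 reads in HepG2, 17.0% (8.89% to 30.1%), against 0% to 6.12%, again with overlap. UBAP2, a ubiquitin-binding protein gene with 16 loops read in HepG2, lacked its exon 2 to 6 loop there, at 0 of 56 reads, which allows a share of up to 6.42% (Wilson upper limit). The other lines had 5.56% to 16.7%.

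**Figure D3:**
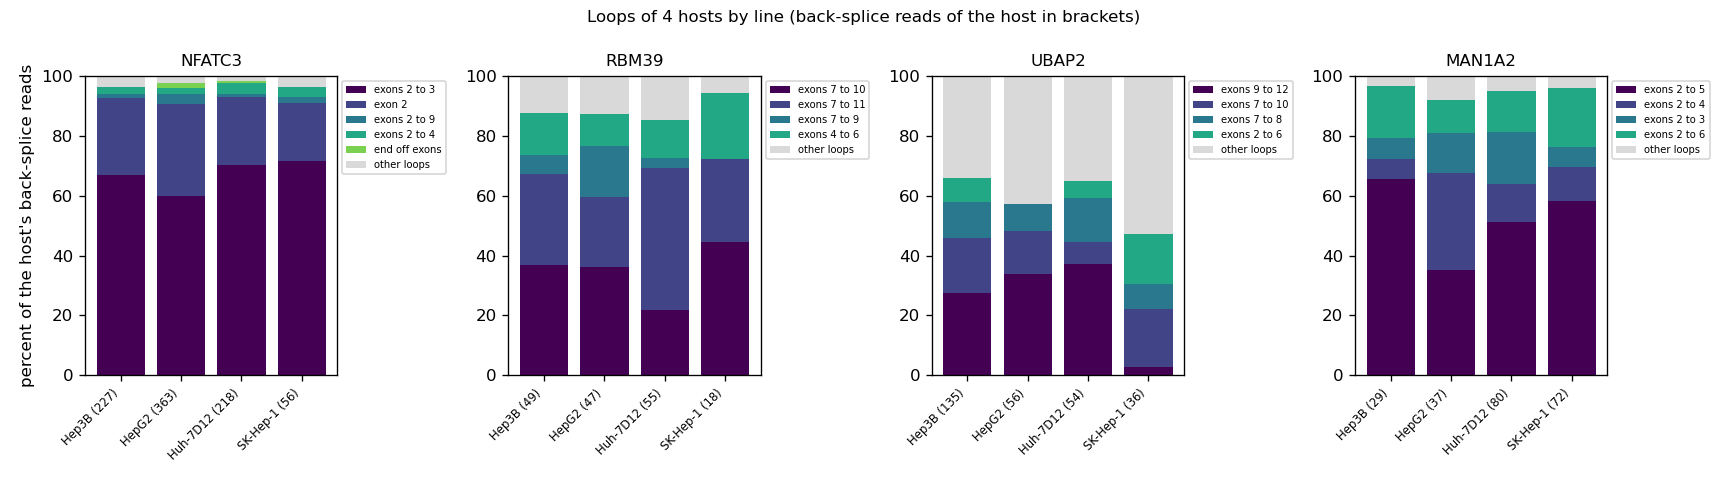
Percent of the host's back-splice reads in each loop, by line, for the 4 hosts with 3 or more circRNAs at a value of 6 or more in HepG2; the host's back-splice reads are in brackets. The exon 2 to 3 loop leads NFATC3 in every line, and the exon 2 to 4 loop of MAN1A2 reaches 32.4% in HepG2.

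For the comparison across all members, a circRNA was counted as higher in HepG2 where its log2 value, after adding 1.21 normalized reads, was 4-fold or more above the highest of the other 3 lines, and as lower where it was 4-fold or more below the lowest. By this count 14 of the 777 circRNAs (1.8%) were higher in HepG2 and 8 (1.03%) were lower. The same count gave 13 and 3 for Hep3B, 50 and 3 for Huh-7D12, and 62 and 28 for SK-Hep-1. HepG2 had about as many as Hep3B and fewer than Huh-7D12 and SK-Hep-1 by the higher count. The median log2 difference of HepG2 from the mean of the other 3 lines was -0.60, with 517 members below and 260 above. The same median was 0.07 for Hep3B, 0.36 for Huh-7D12 and -0.26 for SK-Hep-1. HepG2 alone brought in 53 members, against 78 for Hep3B, 183 for Huh-7D12 and 165 for SK-Hep-1. These medians thus depend on the entry rule. As a share of each line's back-splice reads the HepG2 median was -0.27, with 21 higher (2.7%) and 8 lower (1.03%). On that scale the median was 0.01 for Hep3B, -0.05 for Huh-7D12 and -0.15 for SK-Hep-1. Scaling by gene reads outside the mitochondrial genome gave 14 higher and 12 lower (1.54%). All 14 and all 8 were counted on all 3 scales.

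CYP24A1 led the 14. With 68 reads in HepG2 its loop was 21.3-fold (8.69 to 67.7) above Hep3B, the only one of the 14 whose interval lay wholly above 4-fold. Gene reads of CYP24A1 followed the same order, with 1732 in HepG2, 16 in Hep3B, 1 in SK-Hep-1 and 4 in Huh-7D12, and it was the only host among the 14 that was itself counted as higher. Over all 20543 genes with a value of 6 or more in any line, 588 (2.86%) were higher and 657 (3.2%) lower in HepG2 by the same rule. Per 1000 gene reads, CYP24A1 had 39.8 back-splice reads in HepG2, and 5 for 16 gene reads in Hep3B are too few to set beside it.

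A further 8 of the 14 had no read in any other line, with 5 to 11 reads in HepG2. DIP2C exons 7 to 9, from a gene of the disco-interacting protein family, had 9 reads in HepG2, a normalized value of 12.6. That was 3.11-fold higher than the floor of 3 reads in each other library. The loops of ITPR2 exons 27 to 37, from an inositol trisphosphate receptor that releases calcium from the endoplasmic reticulum, and of PRCC exon 3, from a proline-rich nuclear protein gene, had 7 reads each, 2.42-fold higher than the floor. SERGEF exons 2 to 8, from a guanine nucleotide exchange factor gene, and a loop of AL137782.1, annotated as a processed transcript, had 6 reads each, and ARF4 exons 2 to 3, from a small GTPase of Golgi transport, had 5. Bounds over the 8 ran from 1.73-fold to 3.80-fold, so none reached 4-fold by counts alone. These bounds take the HepG2 count as exact, so a smaller difference is not excluded. Not only these 8 but all of the 14 entered through HepG2 only, as no other line reached a value of 6. All of them thus had to be highest there.

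The 8 include a pair whose ends lie in different genes. The highest of the 8, with 11 reads, joined the region of CLEC10A to that of ASGR2 (chr17:7077982-7108557, minus strand), genes of C-type lectins of which ASGR2 is a subunit of the hepatocyte asialoglycoprotein receptor. The other, with 7 reads, joined SULT1A2 to SULT1A1 (chr16:28595783-28608603, minus strand). SULT1A1 and SULT1A2 are near-identical sulfotransferase genes, so a read placed across them is uncertain. Neither had a host gene in the table, and neither has a junction sequence here.

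The last 5 of the 14 had reads in other lines too. TMED2 exons 2 to 3, from a cargo receptor gene of the early secretory pathway, had 12 reads in HepG2, 1 in Hep3B, 1 in SK-Hep-1 and 2 in Huh-7D12, 7.73-fold (1.72 to 71.1) above Huh-7D12. NFATC3 exons 2 to 9 had 12, 3, 1 and 2 reads, and another NFATC3 loop that ends off the annotated exons had 6, 0, 0 and 1. C3 exons 18 to 19, from the complement gene C3, had 6, 1, 0 and 0 reads, and ETFA exons 2 to 4, from an electron transfer flavoprotein subunit gene, had 6, 1, 0 and 1. Each of these rested on at most 3 reads in the nearest line. As a share of back-splice reads 7 more were higher, in ASGR1, TRIM24, SCFD1, RAB6A, RBM39, AASS and SEC31A, with 5 to 13 reads in HepG2.

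**Figure D4:**
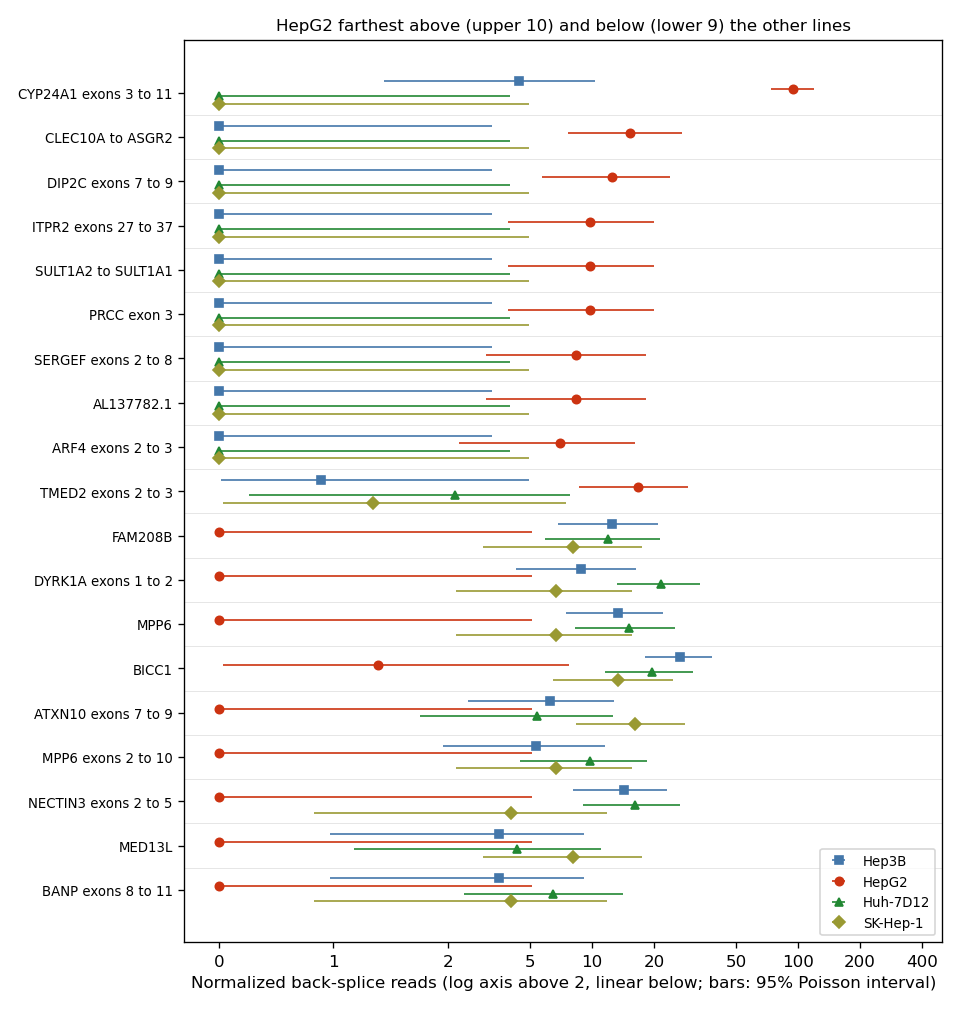
Normalized back-splice reads (log axis above 2, linear below) of the 10 circRNAs with HepG2 farthest above the highest other line and 9 of the 10 with HepG2 farthest below the lowest; points are the value of 1 library and bars its 95% Poisson interval. In the upper 10 the HepG2 interval is clear of the others for CYP24A1, the CLEC10A to ASGR2 join, DIP2C and TMED2, and in the lower 9 HepG2 is at 0 in all but BICC1.

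Since the 4-fold rule is blunt at low counts, the counting intervals were compared as well. The interval of HepG2 lay above those of all 3 other lines for 9 circRNAs (1.16%): 3 NFATC3 loops, CYP24A1, 2 ARHGAP5 loops, TMED2, the CLEC10A to ASGR2 join and DIP2C. As a share of back-splice reads there were 12 (1.54%), with ASPH, GPC3 and NRIP1 added. GPC3, a glypican of liver cancer cells, had 30 reads in HepG2, 24 in Hep3B, 9 in Huh-7D12 and none in SK-Hep-1, where the gene itself had no read. NRIP1 exons 2 to 3, from a nuclear receptor corepressor gene, had 14, 7, 0 and 0 reads. CYP24A1, NFATC3 exons 2 to 9, TMED2, the CLEC10A to ASGR2 join and DIP2C reached a value of 6 in HepG2 only. The entry rule admitted these through HepG2, so they had to be highest there. The loops whose HepG2 interval lay above all others belonged to few hosts.

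In the other direction the interval of HepG2 lay below those of all other lines for 2 circRNAs (0.257%), HIPK3 exon 2 and PTK2 exons 3 to 5. The HIPK3 loop, from a nuclear serine-threonine kinase gene and among the best-known circRNAs, had 11 reads in HepG2, 50 in Hep3B, 33 in SK-Hep-1 and 51 in Huh-7D12. Its normalized values were 15.3, 44.5, 44.4 and 55.2, so HepG2 lay 2.90-fold (1.43 to 6.35) below SK-Hep-1. PTK2, the gene of focal adhesion kinase, had 7, 34, 29 and 37 reads, with HepG2 3.10-fold (1.35 to 8.29) below Hep3B. HIPK3 gene reads were 1355, 3191, 2034 and 2079, and those of PTK2 1130, 2765, 1181 and 1375, in the same order. On the normalized scale HepG2 was the lowest for the HIPK3 gene but not for PTK2, at 1576 against 1489 in Huh-7D12. As a share of each line's back-splice reads, no circRNA was below all others by its interval.

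Of the 8 circRNAs counted as lower, 7 had no read in HepG2. Among them were loops of FAM208B (14, 11 and 6 reads in Hep3B, Huh-7D12 and SK-Hep-1), 2 loops of MPP6 (15, 14 and 5; 6, 9 and 5), and a loop of DYRK1A (10, 20 and 5). Others were of ATXN10 (7, 5 and 12) and NECTIN3 (16, 15 and 3). The remaining loop, of the RNA-binding protein gene BICC1, had 1 read in HepG2, 30 in Hep3B, 10 in SK-Hep-1 and 18 in Huh-7D12, a 9.65-fold (1.37 to 419) lower value than SK-Hep-1. Against the floor of 3 reads in HepG2, the bounds of the 7 did not exceed 1.93-fold, so their absence was not established at this depth. Only 3 circRNAs without a read in HepG2 had a value of 6 or more in all 3 other lines, against 12 for SK-Hep-1, 1 for Huh-7D12 and 0 for Hep3B.

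Low host expression accompanied several of these. MPP6, a membrane scaffold gene, had 242 gene reads in HepG2, 2077 in Hep3B, 558 in SK-Hep-1 and 2154 in Huh-7D12. BICC1 had 249, 2589, 1534 and 2600, and NECTIN3, a cell adhesion gene, 392, 2274, 1115 and 1169. Of the 8 lower circRNAs, 5 had a host whose gene value in HepG2 was 2-fold or more below the mean of the other lines, against 14.2% of all members with a host. Likewise, 7 of the 12 higher circRNAs that had a host had one 2-fold or more above the mean, against 13.2% of all members. All 12 entered through HepG2 only and were counted for a high value there, and the 8 lower for a low one. All members were not chosen in this way, so they are no like comparison for either set. MPP6 among the lower and NFATC3 among the higher each supplied a pair of loops, so loops were counted, not separate hosts.

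The 5 most abundant members with no read in HepG2 had at most 1 read in SK-Hep-1 or in Hep3B as well. The leading loop of LPAR1, a lysophosphatidic acid receptor gene, had 0 reads in HepG2 and Hep3B, a single read in Huh-7D12 but 66 in SK-Hep-1, and LPAR1 had no gene read in HepG2 against 4179 in SK-Hep-1. GLIS3 exon 2, from a zinc finger gene, had 14 reads in Hep3B, 1 in SK-Hep-1 and 46 in Huh-7D12, and CDK14 exons 3 to 4, from a cyclin-dependent kinase gene, 13, 0 and 28. Gene reads in HepG2 were 6 for GLIS3 and 4 for CDK14, against 403 and 1194 in Hep3B. BABAM2 exons 5 to 7 had 37 reads in SK-Hep-1 and 0 in the other 3 lines, although its gene had 326 reads in HepG2. A back-splice on chromosome 11 at 66639700 to 66640123, without a single host, had 27 reads in Hep3B and 67 in Huh-7D12.

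Circular and gene reads were then set against each other for the 837 hosts with summed circRNA values of 6 or more in any line and at least 50 gene reads in every line. Together these hosts had 3.24 (3.15 to 3.34) back-splice reads per 1000 gene reads in HepG2, against 4.34 (4.25 to 4.43) in Hep3B, 3.67 (3.56 to 3.77) in SK-Hep-1 and 5.12 (5.02 to 5.23) in Huh-7D12. HepG2 was the lowest, with no overlap. The median log2 difference of the ratio from the mean of the other lines was -0.49 in HepG2, 0.11 in Hep3B, -0.12 in SK-Hep-1 and 0.71 in Huh-7D12. The ratio was the lowest of the 4 lines in HepG2 for 322 hosts and the highest for 89. Gene reads of the same hosts were not lower: their median log2 difference was -0.01, and that of the circular reads -0.55. With the fewest back-splice reads, HepG2 also had the most hosts without any, 177 against 64 to 168.

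Host by host, the ratio was higher in HepG2 for 4 (0.478%) and lower for 50 (5.97%) by the 4-fold rule with 0.5 reads added. The same count gave 6 higher and 20 lower for Hep3B, 34 and 17 for Huh-7D12, and 19 and 34 for SK-Hep-1. The 4 of HepG2 were DIP2C, PRCC, ARF4 and TMED2, hosts of loops named above. All 4 entered through HepG2 alone, since no other line reached a summed circRNA value of 6 for them. The first 3 had no back-splice read elsewhere. Against the floor of 3 reads in the other lines their ratios were at least 2.78-fold higher for DIP2C and at least 2.33-fold higher for PRCC. For ARF4 the bound was 0.952-fold, so a higher ratio was not established. DIP2C had 138 gene reads in HepG2, 171 in Hep3B, 309 in SK-Hep-1 and 128 in Huh-7D12, so that its 9 back-splice reads came to 65.2 (29.8 to 124) per 1000 gene reads. It was the only host of the 837 (0.119%) whose interval in HepG2 lay above those of all other lines, and none lay below. TMED2 gene reads were 4486, 4382, 4286 and 4237, close in read number in the 4 lines, while its back-splice reads were 12, 1, 1 and 2. The TMED2 ratio in HepG2 was 5.67-fold (1.26 to 52.1) above Huh-7D12.

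Of the 50 hosts with a lower ratio, 44 had no back-splice read in HepG2. ANKRD11, a chromatin cofactor gene, had 8 back-splice reads in each of the other lines and 0 in HepG2, with 1556, 1099, 1789 and 838 gene reads in HepG2, Hep3B, SK-Hep-1 and Huh-7D12. With the 0 of HepG2 set to the floor of 3 reads, its ratio was 2.32-fold lower than in SK-Hep-1, the largest such bound. The counting intervals of the 2 lines still overlapped, at 0 to 2.37 per 1000 gene reads in HepG2 and 1.93 to 8.81 in SK-Hep-1. STAU1, a double-stranded RNA-binding protein gene, had 0, 7, 1 and 14 back-splice reads for 4839, 4151, 1624 and 2779 gene reads. PPP6R3, a phosphatase subunit gene, had 0, 33, 9 and 19 for 2444, 15381, 2294 and 8739. TBCD, a tubulin folding cofactor gene, had 0, 2, 10 and 6 for 423, 195, 453 and 139. These hosts were expressed in HepG2, above the mean of the other lines for ANKRD11, STAU1 and TBCD, without a read across a back-splice.

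RPS6KA3 and NFIA were also among the 8 farthest below, but with no back-splice read in 1 or more other lines, so that the call there rests on gene reads and the added 0.5 alone. Bounds over the hosts without a read in HepG2 did not exceed 2.32-fold, and none reached 4-fold. Across the 837 hosts the circular difference and the gene difference had a Spearman correlation of 0.39, a description only, since both share the library. Both were above the mean of the other lines for 195 hosts and both below for 333, while 222 had fewer circular and more gene reads and 87 the reverse.

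**Figure D5:**
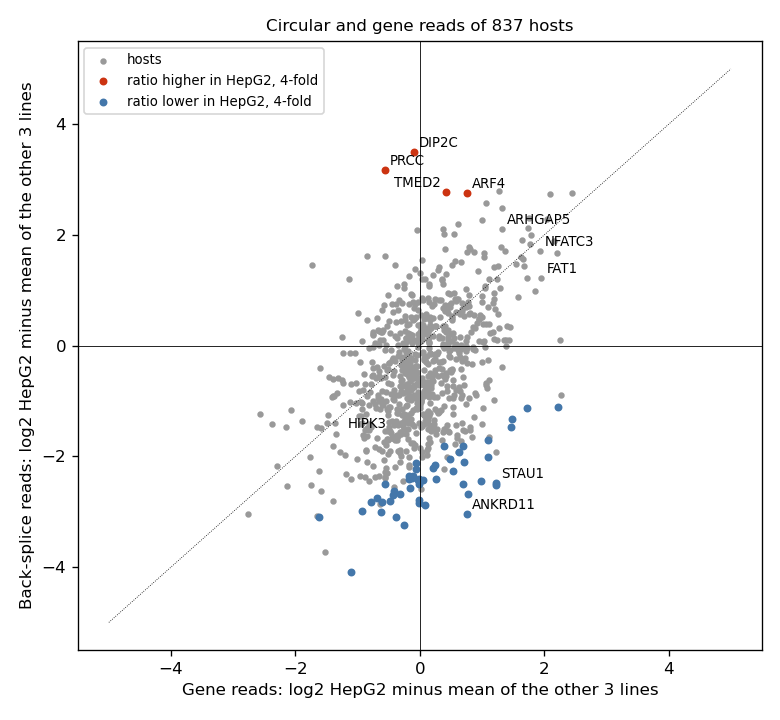
Log2 difference of HepG2 from the mean of the other 3 lines in back-splice reads (vertical) against that in gene reads (horizontal) for 837 hosts; the dotted line marks equal differences. Most hosts lie below the dotted line, and the 4 hosts counted with a higher ratio, DIP2C, PRCC, ARF4 and TMED2, lie above it.

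Of 50 hosts known for abundant circRNAs in human cells, 38 were hosts of members, with 80 circRNAs. By the 4-fold rule 2 of these (2.5%) were higher in HepG2, both in NFATC3, and 1 (1.25%) lower, in ATXN10. Over all 777 members the shares were 1.8% and 1.03%. The median log2 difference of the 80 was -0.47, beside -0.60 over all 777. Of the 80, 28 lay above and 52 below the mean of the other lines. FBXW7 exons 3 to 4, from a ubiquitin ligase subunit gene, had 14, 53, 20 and 33 reads in HepG2, Hep3B, SK-Hep-1 and Huh-7D12. ZNF609, whose loop is known from muscle cells, had 7, 32, 22 and 21, and FGD6 exon 2, from a guanine nucleotide exchange factor gene, 11, 63, 89 and 25. HepG2 had the fewest reads in each, but its counting interval was not below those of all other lines. PHC3 exons 5 to 6, a Polycomb gene, had 32, 39, 9 and 27 reads and a HepG2 value 1.29-fold (0.779 to 2.11) above Hep3B. PICALM exons 2 to 4, from a clathrin assembly gene, was level, with 8, 8, 9 and 8.

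Relative to gene reads, ZKSCAN1 stood higher in HepG2, with 24.0 (16.9 to 33.1) back-splice reads per 1000 gene reads against 13.8 (10.6 to 17.6) in Hep3B, 8.44 (4.62 to 14.2) in SK-Hep-1 and 10.7 (6.80 to 16.1) in Huh-7D12. The ZKSCAN1 interval of HepG2 overlapped that of Hep3B, the nearest line, above which HepG2 lay 1.74-fold (1.13 to 2.65). ZKSCAN1 gene reads were 1539, 4713, 1658 and 2144. HIPK3 had 8.12 (4.05 to 14.5) in HepG2 and 15.7 to 25.5 elsewhere, and PTK2 15.9 (9.44 to 25.2) against 28.9 to 61.0. Both intervals of HepG2 overlapped those of Hep3B, the nearest line. HepG2 lay 1.93-fold (0.992 to 4.11) below it for HIPK3 and 1.82-fold (1.08 to 3.22) for PTK2. Of the 50 listed hosts 38 had a ratio, 35 of them hosts of members. The ratio lay below the mean of the other lines for 27 (71.1%) and above it for 11, with a median log2 difference of -0.33, beside 538 of all 837 hosts below (64.3%) and a median of -0.49.

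Genes for making and clearing circRNAs were measured in the gene table. Of 48 listed genes 47 were measured. By the 4-fold rule 0 were higher and 0 lower in HepG2, beside 2.86% and 3.2% over all genes. At those shares few calls would fall among 47 genes. The median log2 difference of the list was 0.12, beside -0.06 over all genes. QKI, an RNA-binding protein that pairs flanking introns and promotes back-splicing, had 1926 reads in HepG2, 2435 in Hep3B, 1052 in SK-Hep-1 and 1461 in Huh-7D12, with the highest normalized value in HepG2, 2686. ADAR, the RNA editing enzyme that opposes intron pairing, had 2552, 7179, 3740 and 5338, with the lowest value in HepG2, 3559. DHX9, a helicase with a like role, was also lowest in HepG2, at 5333 against 5963 to 8169. None of these differences reached 4-fold, and their part in the circular reads was not tested.

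Of 26 liver secretory genes FN1, ITIH3 and HP were higher in HepG2. Over all 20543 genes 2.86% were higher and 3.2% lower by the same rule. ALB, APOA1 and C3, 11.5% of the list, were hosts of members, beside 556 (2.71%) of the 20543 measured genes. APOA1, the main protein of high-density lipoprotein, had a back-splice with 17 reads in HepG2, 14 in Hep3B, 0 in SK-Hep-1 and 7 in Huh-7D12. The back-splice of ALB had 36 reads in Huh-7D12 and 0 in the other lines, against 89823 ALB gene reads in HepG2 and 298342 in Hep3B. Targets of Wnt signalling, 6 of 14 higher in HepG2, and of NRF2, 6 of 14 measured, were hosts of no member. At the 2.71% over all measured genes, lists this short would hold few hosts or none. Among 21 mesenchymal and matrix genes, FN1 was higher and VIM, ITGA5, COL4A1 and FBN1 were lower. Only AXL, a receptor tyrosine kinase gene, was a host of members there, with 2 loops read 31 and 7 times in SK-Hep-1 and in no other line. Of the 588 genes counted as higher in HepG2, 1 was a host of a member, CYP24A1.

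The repertoire was nearest to that of Hep3B. Over the 777 members the Spearman correlation of HepG2 was 0.50 with Hep3B, 0.28 with Huh-7D12 and 0.12 with SK-Hep-1, given as a description since members were chosen for a value in at least 1 line and depth differs. Of the 50 most abundant circRNAs of HepG2, 24 were among the 50 of Hep3B, 19 among those of Huh-7D12 and 15 among those of SK-Hep-1. Of all 2383 circRNAs of HepG2, 583 were read in all 4 lines, and these held 45.7% of its back-splice reads. Another 572 were read in HepG2 alone and held 16.3%, against 24.9% to 30.9% for the line-restricted circRNAs of the other lines.

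In the exon number and length of its loops the HepG2 repertoire resembled the others. Both ends matched exons of 1 annotated transcript for 671 members, 466 of them read in HepG2. These loops had a median of 3 exons and 504.5 spliced bases in HepG2, against 3 exons and 512 to 519 bases elsewhere. Loops that start at exon 2 held 57.7% (55.9% to 59.5%) of the reads in HepG2, 55.5% in Hep3B, 52.6% (50.9% to 54.4%) in SK-Hep-1 and 58.9% in Huh-7D12. Only the interval of SK-Hep-1 was apart from that of HepG2. Loops of a single exon held 18.2% (16.8% to 19.7%) in HepG2 and 17.8% (16.7% to 18.8%) in Hep3B. Their share was lower, without overlap with HepG2, in Huh-7D12 at 15.4% (14.4% to 16.4%) and SK-Hep-1 at 14.3% (13.1% to 15.6%). The single-exon NFATC3 loop alone gave 111 of the 2810 reads in HepG2. It gave 50 of 5208 in Huh-7D12 and 11 of 3151 in SK-Hep-1. NFATC3 loops also count among those that start at exon 2. Neither share was computed without NFATC3, so neither can be read as a trait of the whole repertoire. Of the 10 higher loops with matched exons 5 began at exon 2, and of the 5 lower ones 3 did, beside 51.6% of all 671.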

How the data were processed

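Total RNA of 4 cell lines was sequenced (100-bp paired ends, per the labels), 1 library each. The authors deposited a circRNA table and a gene table of normalized read signal; STAR 2.6.1d and hg38 are named in the submitters' processing notes, while the sources used here name no circRNA caller, gene counter, read minimum or normalization method. In both deposited files, 100% of values were whole multiples (tolerance 0.001 reads) of 1 factor per line (0.890 in Hep3B, 1.39 in HepG2, 1.08 in Huh-7D12, 1.35 in SK-Hep-1), so whole reads were recovered; no count test was run, because a line with a single library gives no spread to test against.

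CircRNAs were matched to hosts by gene ID and to exons in GENCODE 29; 735 of 777 had 1 host, 29 several and 13 none. Several-host and hostless circRNAs were left out of the ratios. Differences were taken on log2(value + 1.21), where 1.21 is the median of the 4 per-line factors; ratios added 0.5 reads. Intervals (95%) were exact Poisson for levels, exact binomial for ratios of lines and Wilson for shares; reads without molecular identifiers are not independent molecules. A read count of 0 was set to a floor of 3 reads per library for bounds. The bounds take the other count as exact and are not interval limits.

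Named circRNAs were the 10 highest in HepG2, the 10 farthest above and the 10 farthest below the other lines, the leading loop of each listed host, and the most abundant with reads in HepG2 only or in all but HepG2; named hosts were the 8 farthest in ratio in each direction, the 5 whose circular and gene differences were farthest apart, and those with 3 or more loops. A few items that these rules name are not reported here. Members, lists and rules were chosen with earlier results of these data known. The loops of GPC3, APOA1, ALB, AXL, C3, ETFA and NFATC3 exons 2 to 9 were named after their values were seen. Alternatives covered scaling, pseudocount, entry level, gene read minimum and each other line left out. Python 3.11.15, numpy 2.4.6, pandas 2.3.3, scipy 1.17.1 and matplotlib 3.10.9 were used; the scripts were tested on simulated data.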

Additional observations from a re-analysis of the deposited data

How the results depend on the processing

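The counts of circRNAs depended on the settings, since most calls rest on few reads. Of 14 higher, 9 were left at a doubled pseudocount, 58 were counted at an entry value of 3 or with none, 5 at 12, and 27 without Hep3B. Of 8 lower, 30 were counted at a halved and 2 at a doubled pseudocount, 25 without Hep3B, 16 without Huh-7D12 and 43 without SK-Hep-1. As a share of the line total, 72 were higher at entry 3, 6 at 12 and 41 without Hep3B, and 22 were lower at a halved and 4 at a doubled pseudocount, 20 without Hep3B, 16 without Huh-7D12 and 38 without SK-Hep-1. With a line left out fewer lines have to be exceeded, which raises these counts by construction. The 8 circRNAs of HepG2 alone became 52 at entry 3 and 2 at 12, and the 3 missing from HepG2 became 20 and 0. Hosts with a higher ratio numbered 7 at 10 gene reads, 2 at a host entry of 12, 13 without Hep3B and 8 without SK-Hep-1. Hosts with a lower ratio numbered 19 at a host entry of 12, 13 with 1 read added, 83 without Hep3B and 79 without SK-Hep-1. The median ratio difference stayed between -0.58 and -0.33. Back-splice reads per 1000000 gene reads were 272 over all gene reads, and 486 without NFATC3, an alternative chosen after seeing the data. The top 10 share was 21.8% of the reads of members and 7.61% without NFATC3. Of 66 named circRNAs, CAMSAP1, CCDC66, EPHB4, EXOC6B and HIPK2 loops changed the sign of their uncalled difference as a share of the line total. No paired analysis was possible because each line is 1 library; for the same reason no replicate could be left out. The 6235 back-splice reads of HepG2 limit what can be said of any circRNA at 0 there.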
